A study of Mus musculus with 55 samples.

Results

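The Bex and Tceal genes described here are Bex1, Bex2, Bex3, Bex4, Tceal1, Tceal3, Tceal5, Tceal6, Tceal8 and Tceal9, which are 10 of the 55487 Ensembl genes counted. They were selected on their KO against WT values, by name from the gene counts, after Bex1, Bex2 and Tceal8 had been seen to be lower in knock-out (KO) than in wild-type (WT) mice. The KO against WT values below are therefore a description of genes picked for that difference, whereas the sex and estrous stage tests within a genotype did not enter the choice. All 10 passed the filter on low counts that left 16168 genes, with 771 to 42858 counted reads per gene and mouse. RNA was sequenced from the dorsal hippocampus of 55 adult mice on a C57/BL6j background, with 1 library per mouse. The 27 WT mice comprised 5 males, 4 metestrus, 6 diestrus, 5 proestrus and 7 estrus females. The 28 KO mice comprised 7 males, 5 metestrus, 6 diestrus, 4 proestrus and 6 estrus females. KO mice are homozygous for an allele of Cnih3, an auxiliary protein of AMPA receptors, that lacks an internal exon and shifts the reading frame behind it. The deletion is constitutive, no mouse received a treatment, and ages ran from 10.86 to 23.71 weeks. All 28 KO mice came from parents of the Cnih3 line, as did 11 of the WT mice, whereas the parents of the other 16 WT mice were both B6.

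Bex (brain expressed, X-linked) and Tceal (transcription elongation factor A like) genes encode small proteins that are largely disordered in structure. Bex1 and Bex3, the latter also known as Nade, bind the intracellular part of the p75 neurotrophin receptor, and Bex proteins have been tied to neuronal differentiation, cell cycle exit and cell death. Tceal proteins resemble part of the elongation factor TFIIS, and Tceal1 was first described as a nuclear phosphoprotein that modulates transcription. The genes lie together on the X chromosome of placental mammals and share a conserved motif near their starts of transcription with Armcx and Gprasp genes nearby.

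Library totals ranged from 25881295 to 63547098 counted reads. The targeted gene was still counted in KO mice, since most of its transcript remains. Cnih3 lay between 21.6 and 62.5 CPM (counted reads scaled to a common library total) in WT mice, with a median of 39.5, and between 21.6 and 47.8 in KO mice, with a median of 31.0. Over all groups it was lower in KO by a log2 difference of -0.34 ± 0.08 (SE; limma with quality weights, false discovery rate (FDR) 0.00692). A gene-level count cannot show whether the deleted exon is missing. The paper examined read coverage of that exon in each sample and reports that it bore out the KO genotype of all mice assessed. WT diestrus replicates 3 and 4, singled out by their ratios of Bex2 to Bex3 given below, did not sit clearly with their label. No other mouse was put to the check that follows. Only Aim2 and Atf4 separated every KO mouse from the other 25 WT mice, and both of these mice were in the WT range for Aim2 (2.79 and 2.78 CPM, KO up to 2.47) but in the KO range for Atf4 (105 and 98.1 CPM, other WT mice from 127). Their labels were kept, and results that rest on them are given with and without them.

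On the GRCm38 assembly 9 of the genes lie on the X chromosome between 136066564 and 136711478, a stretch of 645 kb, and Tceal6 lies 856 kb before them. In order they are Tceal6, Bex2, Bex4, Tceal8, Tceal5, Bex1, Tceal9, Bex3, Tceal3 and Tceal1. Bex2, Tceal8, Tceal5, Bex1 and Tceal6 are read from the minus strand and the others from the plus strand. Exons of Bex1 share 223 bases with Tceal7 on the opposite strand, and since the library kit does not keep the strand, reads there cannot be assigned to either gene. Copies within the family are also alike in sequence. Of all 75-base windows of its annotated transcripts, Bex4 shared 38.3% with another gene, mainly Bex1, and Bex1 shared a smaller part with Bex4, Tceal7 and Bex2. The share was 29.5% for Tceal6, 21.6% for Tceal5, 14.5% for Bex2, 8.29% for Bex3 and 7.94% for Tceal3. Tceal1, Tceal8 and Tceal9 shared no such window with any other gene, so their counts have no near-identical copy to split with.

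The start sites of the 10 genes carry a common layout, shown here because it is what the genes share outside the counts. RefSeq promoter windows, which run from 250 bases before to 50 bases after a start, were found for all 10. Each stretch below is written from 5′ to 3′ on the gene's strand, with TGACG and CACGTG in capitals (CATGTG in Tceal9). CACGTG is the palindromic form of the E-box, and TGACG is part of the cAMP response element.
Bex1 (chrX:136215507-136215528, minus strand): TGACGcaagtggCACGTGacta
Bex4 (chrX:136138975-136138996, plus strand): TGACGcaagtggCACGTGacta
Bex2 (chrX:136068163-136068186, minus strand): TGACGcagggccctCACGTGaccc
Bex3 (chrX:136270266-136270289, plus strand): TGACGcagggccctCACGTGaccc
Tceal1 (chrX:136707967-136707990, plus strand): TGACGcgctcccctCACGTGacca
Tceal3 (chrX:136666366-136666387, plus strand): TGACGcggtgttCACGTGaccg
Tceal5 (chrX:136203890-136203911, minus strand): TGACGttcctgtCACGTGatca
Tceal6 (chrX:135210692-135210713, minus strand): TGACGctttgctCACGTGactg
Tceal8 (chrX:136172225-136172246, minus strand): TGACGcgatcctCACGTGacca
Tceal9 (chrX:136245076-136245097, plus strand): TGACGtagatctCATGTGacca
The Bex2 stretch was read from its annotated transcript, because it begins beyond the end of the Bex2 window. The other stretches were read from the promoter windows.

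Searched on both strands, CACGTG occurred in the windows of 8 of the 10 genes (not in Bex2 or Tceal9) and in 7.15% of all 32851 windows. TGACG followed after 7 bases by CACGTG occurred in 6 of the genes, and after 9 bases in Bex3 and Tceal1. Either spacing was present in only 25 of all windows, or 0.0761%. This spacing was picked after the windows had been read, so its rarity describes the genes and does not test anything. Of the 15 other genes with either spacing 4 lie on the X chromosome, among them Armcx1, Armcx4 and Armcx6. GGGCGG, the core of a GC box, was in 8 of the 10 genes and 35.7% of all windows. CCAAT was in 5 genes and 37.4% of windows, TATAAA in Bex2 alone and 13.6% of windows, and TGACGTCA in no gene and 1.79% of windows. The longest run common to all 10 windows had 5 bases. CACGTGA, a run that overlaps the E-box searched above, was in 8 of the genes and 3.77% of windows.

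The promoters fall into 2 near-identical pairs and 6 single ones. Windows of Bex1 and Bex4 were identical at 98.0% of aligned bases and those of Bex2 and Bex3 at 84.8%, whereas the next closest pair, Tceal5 and Tceal9, reached 41.9%. The stretch that both members of a pair hold without a difference is given below, with GGGCGG in capitals, because the members of each pair are compared in the results that follow.
Bex1 (chrX:136215514-136215713, minus strand) and Bex4 (chrX:136138790-136138989, plus strand): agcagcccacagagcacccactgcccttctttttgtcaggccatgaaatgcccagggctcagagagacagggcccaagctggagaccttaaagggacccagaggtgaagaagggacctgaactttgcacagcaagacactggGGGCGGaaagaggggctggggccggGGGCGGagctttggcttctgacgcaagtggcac
Bex2 (chrX:136068237-136068381, minus strand) and Bex3 (chrX:136270071-136270215, plus strand): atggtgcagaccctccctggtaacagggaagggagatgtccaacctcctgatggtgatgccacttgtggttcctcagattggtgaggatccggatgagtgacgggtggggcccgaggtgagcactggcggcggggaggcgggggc

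Levels differed widely among the 10 genes. Per kilobase of annotated exon, Bex2 was the highest in WT mice at 760.2 ± 120.2 CPM per kb (SD, n = 27). These levels compare genes only roughly. The exon length includes stretches shared with other genes, where reads may not align uniquely, and joins all annotated transcripts of a gene. Bex3 followed at 356 ± 56.8 and Tceal9, a protein that binds WW domains, at 172 ± 24.5. Tceal6 (89.8 ± 14.0), Bex1 (81.3 ± 13.9) and Tceal5 (79.4 ± 10.8) came next and were not ordered, since the mean ± SD ranges of neighbours overlapped. The order of the genes within each mouse was not taken. The mean ± SD ranges also overlapped between Tceal3 (57.6 ± 7.94) and Tceal8 (54.1 ± 6.33) and between Tceal8 and Bex4 (44.2 ± 6.96), and Tceal1 was lowest at 30.5 ± 3.48 CPM per kb. The near-identical promoter pairs thus held genes of unequal level, with Bex2 above Bex3 and Bex1 above Bex4.

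Over all mice and groups, 6 of the 10 genes were lower in KO than in WT at an FDR under 0.05 and none was higher, while 1.9% of the 16168 genes tested were lower in KO. The rule that chose the genes used this contrast, so the count is given without a reading. Differences are on the log2 scale as the mean of the 5 KO groups minus the mean of the 5 WT groups, from limma with quality weights. The 10 genes had a median difference of -0.18 and the 16168 genes one of -0.0029. Just inside the threshold was Tceal9, at -0.17 ± 0.04 (SE) and an FDR of 0.00737, and just outside it Tceal6, at -0.14 ± 0.04 and 0.0540. In bulk tissue a lower level can be fewer cells that express a gene or less RNA in each cell, and these cannot be told apart.

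**Figure D1:**
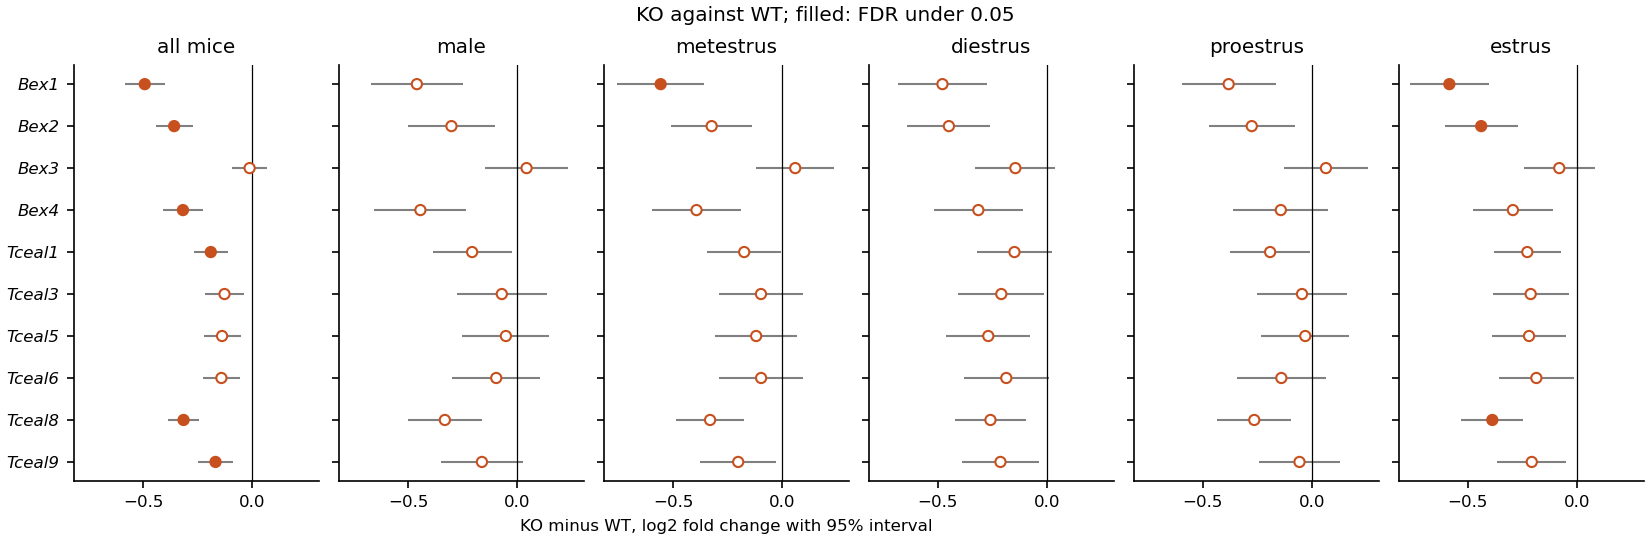
KO minus WT log2 fold change of the 10 genes over all mice and in each of the 5 groups, with 95% intervals; filled points have an FDR under 0.05. Bex1 lies furthest to the left over all mice at -0.49, and Bex3 lies near 0 at -0.01.

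Bex1, an adaptor of the p75 neurotrophin receptor, had the largest difference of the 10, at -0.49 ± 0.05 (limma FDR 2.17e-11), which means that it decreased by 28.9% in KO. In CPM, the WT males were at 82.4, 86.3, 94.6, 117 and 137, and the 7 KO males ran from 63.2 through a median of 71.6 to 111. WT metestrus mice were at 82.5, 86.0, 92.7 and 94.5 and KO metestrus mice at 51.7, 55.6, 57.7, 63.0 and 79.8. The male ranges overlapped through 1 KO mouse, replicate 6, at 111 CPM, whereas every KO metestrus mouse was below every WT metestrus mouse. In diestrus the 6 WT mice ran from 82.7 through 86.0 to 118, and the 6 KO mice from 60.5 through 64.4 to 73.4. WT proestrus mice were at 88.7, 88.7, 96.9, 106 and 146, and KO proestrus mice at 70.0, 72.3, 79.5 and 82.9. The 7 WT estrus mice ran from 81.5 through 88.1 to 106 and the 6 KO estrus mice from 43.5 through 62.0 to 67.0. Every KO female was thus below every WT female of the same stage.

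**Figure D2:**
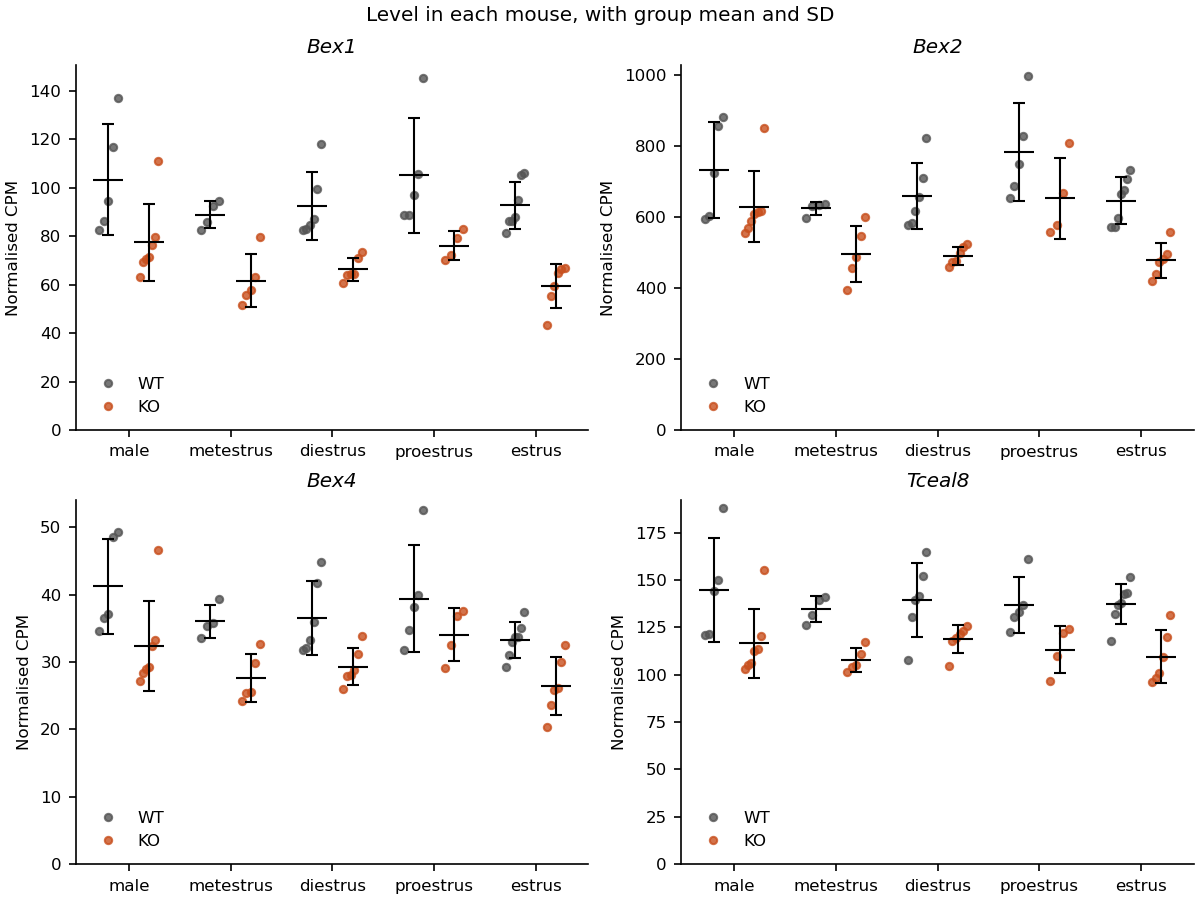
Normalised CPM of Bex1, Bex2, Bex4 and Tceal8 in each mouse by sex or stage and genotype, with group mean and SD in black. KO values of Bex1 lie below the WT values in each female stage, and the single high KO male is replicate 6, at 111 CPM for Bex1 and 849 for Bex2.

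Bex4, whose promoter is nearly that of Bex1 and whose protein has been described at microtubules, was lower, at -0.32 ± 0.05 (limma FDR 4.18e-06). WT metestrus mice were at 33.6, 35.3, 35.8 and 39.4 CPM and KO metestrus mice at 24.3, 25.4, 25.6, 29.9 and 32.7, with no overlap. In the other groups the ranges overlapped. The proestrus difference, -0.14 ± 0.11, was the smallest of the 5 groups for Bex4, with WT mice at 31.8, 34.7, 38.1, 39.9 and 52.5 CPM and KO mice at 29.1, 32.6, 36.8 and 37.6.

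Bex2, the most abundant member, was lower, at -0.36 ± 0.04 (limma FDR 3.03e-08). WT males were at 595, 602, 724, 855 and 881 CPM, and KO males ran from 553 through 608 to 849. WT metestrus mice were at 596, 631, 633 and 634, and KO metestrus mice at 393, 456, 486, 545 and 599. In both groups the ranges overlapped, in metestrus through the highest KO mouse alone. The WT diestrus mice ran from 576 through 635 to 820 and the KO diestrus mice from 457 through 486 to 524. WT proestrus mice were at 653, 687, 747, 828 and 996, and KO proestrus mice at 558, 577, 666 and 807. In estrus WT mice ran from 571 through 664 to 733 and KO mice from 420.2 through 476 to 558. The ranges did not overlap in diestrus or estrus and did overlap in proestrus.

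Bex3, whose promoter shares its core with that of Bex2, differed by less than the spread, with a difference of -0.01 ± 0.04 (limma FDR 0.928) and a 95% interval from -0.09 to 0.07. WT mice ran from 281 through 337 to 508 CPM and KO mice from 256 through 340.2 to 527. Its differences in the single groups lay between -0.14 in diestrus and 0.06 in proestrus, and no group separated the genotypes.

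Bex2 and Bex3 varied together from mouse to mouse, so their ratio was also taken within each mouse. Bex2 was 1.64 to 2.21 times Bex3 in WT mice, with a median of 2.00, and 1.41 to 1.68 times Bex3 in KO mice, with a median of 1.55. Of the 27 WT mice 25 lay above the highest KO mouse, and of the 28 KO mice 26 lay below the lowest WT mouse. The 2 WT mice inside the KO range were diestrus replicates 3 and 4, at 1.64 and 1.65. Without them WT mice began at 1.87, above every KO mouse. That follows from how they were picked, as the WT mice below the highest KO ratio. Other pairs of genes were not examined for such a split. Both have Cnih3 line parents and an age of 12.29 weeks. Their Bex1 to Bex3 ratios, 0.233 and 0.214, were also below those of the other 25 WT mice (0.259 to 0.331) and inside the KO range of 0.143 to 0.236. Their levels of Bex1 (87.3 and 84.7 CPM) and Bex2 (615 and 654) stayed within the WT range, while their Bex3 levels were 375 and 396 CPM. Aim2 and Atf4 placed these mice on opposite sides, as given above, so gene-level counts do not settle their genotype. The paper's read coverage of the deleted exon, shown for each WT and KO sample, was not re-examined here. The paper also proposes that some WT diestrus mice fell into 2 transcriptional states, most likely endocrine subphases. Whether these mice belong to 1 of those states was not tested. Without both of them the differences over all mice were -0.49 for Bex1, -0.35 for Bex2 and 0.02 for Bex3, and the same number of members, 6, was called, with 2.5% of all genes lower. The ratio rests on the KO against WT contrast that chose the genes and is a description.

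**Figure D3:**
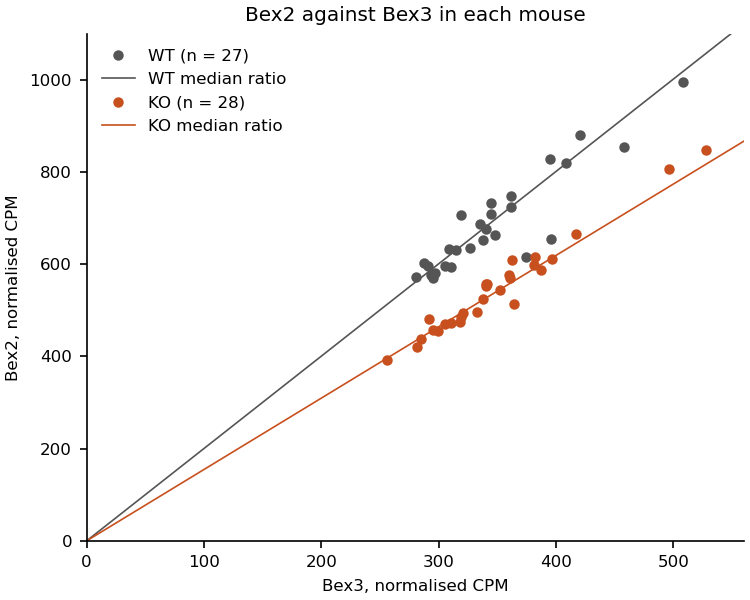
Bex2 against Bex3 in each of the 27 WT and 28 KO mice, both in normalised CPM, with a line through the origin at each genotype's median ratio (2.00 in WT, 1.55 in KO). The genotypes form separate bands apart from 2 WT diestrus mice, which lie among the KO mice at ratios of 1.64 and 1.65.

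Among the Tceal genes, Tceal8 had the largest difference, -0.31 ± 0.04 (limma FDR 1.18e-08), and decreased by 19.6% in KO. WT metestrus mice were at 126, 132, 139 and 141 CPM and KO metestrus mice at 102, 104, 105, 111 and 117, without overlap. WT estrus mice ran from 118 through 138 to 152 and KO estrus mice from 96.3 through 105 to 132, with overlap. In males, 6 of the 7 KO mice were below the lowest WT mouse. Tceal8 shares no 75-base window with another gene, so no near-identical copy shares its reads.

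The remaining Tceal genes differed less. Tceal1, the nuclear phosphoprotein, was lower, at -0.19 ± 0.04 (limma FDR 0.00153), with WT mice from 67.2 to 111 CPM and KO mice from 58.3 to 109.8. Tceal9 ran from 145 to 249.6 CPM in WT and from 141 to 237 in KO mice. Tceal6, Tceal5 and Tceal3 did not pass the threshold, with differences of -0.14 ± 0.04, -0.14 ± 0.04 and -0.13 ± 0.04 and limma FDR values of 0.0540, 0.0552 and 0.0956. For these 5 genes the WT and KO ranges overlapped in each of the 5 groups. Tceal1 and Tceal9 did not keep their calls under every test: with edgeR's quasi-likelihood test their FDR was 0.0527 and 0.287, whereas Bex1, Bex2, Bex4 and Tceal8 kept theirs under all alternatives run.

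The 5 groups were then taken singly, each on fewer mice. In metestrus Bex1 alone was called (-0.56 ± 0.10, limma FDR 0.00483), with 0.0247% of all genes lower in KO. It was not called there by edgeR or DESeq2, without sample weights, without the filter on low counts or with Cnih3 line parents only. In estrus 3 of the 10 genes were called, namely Bex1 (-0.58 ± 0.09, limma FDR 0.000183), Bex2 (-0.44 ± 0.08) and Tceal8 (-0.39 ± 0.07), with 0.118% of all genes lower. In estrus edgeR called 1, limma without sample weights 1, and the fit of Cnih3 line parents 0. No member was called in males, diestrus or proestrus, where 0.00619%, 0% and 0.26% of all genes were lower. By limma 5, 7 and 4 of the 10 had an unadjusted p under 0.05 in these groups, against 5.23%, 8.17% and 13.7% of all genes, and edgeR and DESeq2 called 0 there too. By ranges, every KO mouse was below every WT mouse for Bex1, Bex4 and Tceal8 in metestrus (1.06% of all genes), Bex1 and Bex2 in diestrus (0.0619%) and estrus (0.285%), Bex1 in proestrus (1.01%) and no member in males (0.111%). These counts repeat the contrast that chose the genes and are read no further. Leaving out 1 mouse at a time, Bex1 and Tceal8 in estrus kept their calls in 13 of 13 fits (limma FDR at most 0.00328 and 0.0294), whereas other calls changed. The share of all genes called was not taken in the fits without 1 mouse, so the calls they added or lost have no such reference. Without WT male replicate 5, the lowest for 9 of the 10 genes in its group, Bex1, Bex4 and Tceal8 were called in males (FDR 0.00279, 0.00395 and 0.00789), and without WT male replicate 2 Bex1 was (FDR 0.0396). In diestrus Bex1 and Bex2 were called when any of WT replicates 1 to 5 was left out, with FDR values from 0.00255 to 0.0431 for Bex1. Without WT diestrus replicate 3 or 4 Bex4 was called too (FDR 0.0211 and 0.0305). Without both, Bex1, Bex2 and Bex4 were called in diestrus (limma FDR 0.00198, 0.0035 and 0.0322), with 6.75% of all genes lower. Bex1 in metestrus lost its call without KO replicate 1, KO replicate 3 or WT replicate 2 (FDR 0.0592, 0.0698 and 0.0911). Bex2 in estrus lost its call without KO replicate 2 (FDR 0.0544), and Tceal8 was called in proestrus without WT replicate 4 (FDR 0.045).

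The spread of the genotype difference over the 5 groups is a description too, since it is made of the differences used in the choice. The Bex1 estimates ran from -0.38 ± 0.11 in proestrus to -0.58 ± 0.09 in estrus, and those of Bex4 from -0.14 ± 0.11 in proestrus to -0.44 in males. Over all 16168 genes, limma's moderated F test of genotype by group called 0 (0%), with 961 at an unadjusted p under 0.05.

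Parentage and genotype are partly confounded, as no KO mouse had B6 parents on both sides. Among WT mice, Bex1 ran from 81.5 to 137 CPM (median 88.7) in the 16 with B6 parents and from 82.4 to 146 (median 94.6) in the 11 of the Cnih3 line. When only the 39 mice of the Cnih3 line were fitted, the KO minus WT difference over all groups was -0.58 for Bex1, -0.46 for Bex2, -0.44 for Bex4 and -0.38 for Tceal8, each larger than with all mice. In that fit 7 of the 10 genes were called, Tceal5 being added (-0.23, limma FDR 0.0226), while the share of all genes lower in KO was 8.14% against 1.9% with all mice. WT metestrus, proestrus and estrus each keep 1 mouse there, which is assumed to vary like the other groups.

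The genes between the outermost members were described in the same way. Of the 57 other genes annotated there 7 were tested and 0 were called by limma, with differences from -0.08 to 0.18 and 0.0669 as the smallest FDR. Of these, 1 had an unadjusted p under 0.05 by limma, and edgeR and DESeq2 called 0. Of the other X chromosome genes tested 18 (3.17%) were lower and 9 (1.58%) were higher in KO, with a median of -0.02. Members next to each other also differed, as Bex1, Tceal9 and Bex3, which follow one another along the chromosome, had differences of -0.49, -0.17 and -0.01.

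**Figure D4:**
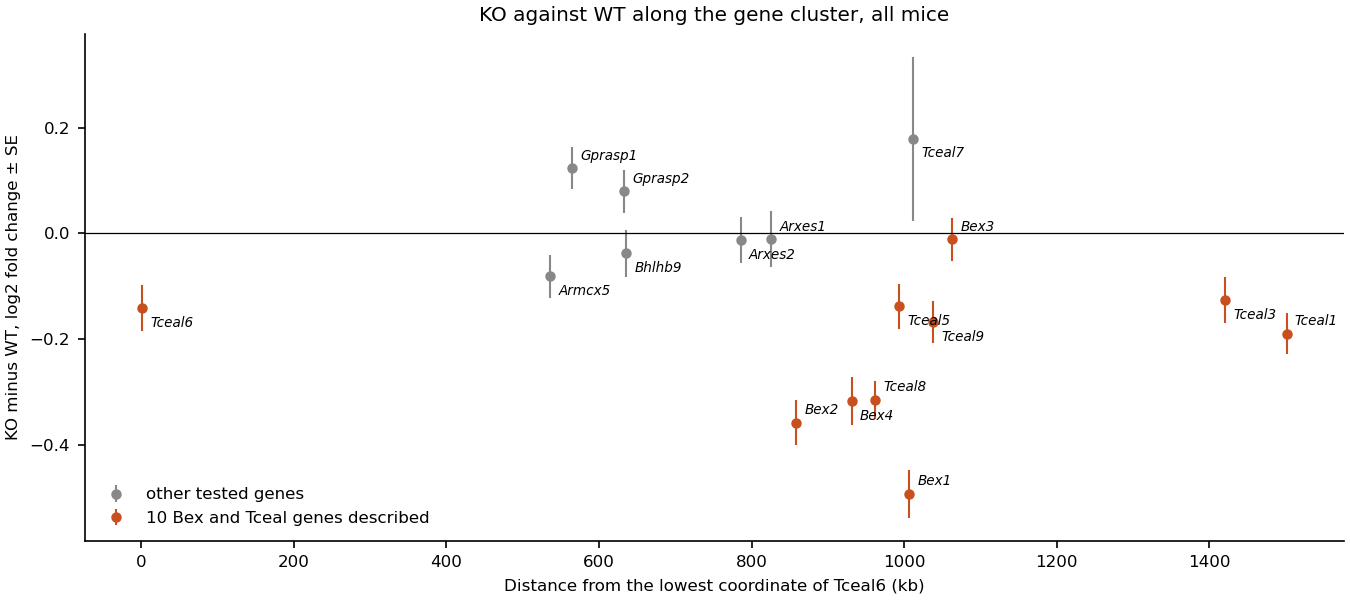
KO minus WT log2 fold change ± SE over all mice for the 10 Bex and Tceal genes and the 7 other tested genes between them, against distance from the lowest coordinate of Tceal6 in kb. The lowest values are those of Bex1, Bex2, Bex4 and Tceal8, in the middle of the map, with Bex3 to their right at -0.01, and of the 7 other genes 6 lie to their left, while Tceal7, beside Bex1, is at 0.18.

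A second count of the same libraries came from the transcript table. For Bex1, Bex2, Bex4, Tceal1, Tceal6 and Tceal8 it holds every annotated transcript, and sums of its Salmon estimates were 40.6% to 50.1% of the gene counts (medians over mice). Differences over all mice were -0.49 for Bex1, -0.35 for Bex2, -0.30 for Bex4, -0.32 for Tceal8, -0.18 for Tceal1 and -0.13 for Tceal6. The main transcript made up most of each estimate in both genotypes. That of Bex1 took a median of 96.7% in WT and 96.1% in KO, and that of Tceal8 took 97.4% and 97.6%.

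Sex differences did not enter the choice of the genes and were tested. In WT mice no member was called between females and males by limma, edgeR or DESeq2, with 0.0309% of all genes called by limma, and 1 of the 10, Bex4, had an unadjusted p under 0.05 in limma, against 2.07% of all genes. In KO mice Bex2 was lower in females, at -0.22 ± 0.06 (limma FDR 0.0273), as was Tceal6, at -0.23 ± 0.06 (0.0265), with 5.93% of all genes called. For Bex2 the group means of KO females were 496 (metestrus), 489.9 (diestrus), 652 (proestrus) and 477 CPM (estrus) against 628 in KO males, so that proestrus females were not lower. Both calls rested on 1 KO male: without replicate 7 the FDR rose to 0.144 for Bex2 and 0.204 for Tceal6. Bex3 was next, at -0.19 ± 0.06 and an FDR of 0.0503. Neither Bex2 nor Tceal6 was called by edgeR's quasi-likelihood test, by DESeq2 or with age as a covariate, where the differences were -0.16 and -0.18 (limma FDR 0.357 and 0.318).

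Stage differences were tested within each genotype over the 6 pairs of stages. In WT females no member was called in any pair by limma, edgeR or DESeq2, and 0 to 3 of the 10 had an unadjusted p under 0.05 in a pair by limma, against 4.36% to 36.5% of all genes. By FDR, 0% to 22.1% of all genes were called, the highest share being that of diestrus against estrus and the shares for metestrus against diestrus and diestrus against proestrus being 7.24% and 9.66%. They were 0.767% for metestrus against proestrus and 6.82% for proestrus against estrus. The nearest was Tceal6 in diestrus against estrus, 0.23 ± 0.09 higher in diestrus with an FDR of 0.0703 by limma. Single mice changed the calls in this pair. The share of all genes called was not taken in the fits without 1 mouse. Bex3, Tceal3 and Tceal6 were called without WT diestrus replicate 1 (limma FDR 0.00739, 0.0132 and 0.00521), replicate 2 (0.00901, 0.0199 and 0.0109) or replicate 6 (0.0133, 0.0276 and 0.0163). Without WT estrus replicate 7 Tceal6 was called (0.0368). Without the same diestrus mice Bex3 and Tceal6 were also called in metestrus against diestrus, with limma FDR values from 0.0116 to 0.0447, and without replicate 1 Tceal8 was called in diestrus against proestrus (0.0391). The WT diestrus pairs also rest on replicates 3 and 4: without both of them no member was called in any WT pair, and the share of all genes called was 0% in each of the 3 pairs with diestrus. In KO females 4 of the 10 genes were called in at least 1 pair. Bex2 was lower in diestrus than in proestrus, at -0.31 ± 0.09 (limma FDR 0.00658), with 34.3% of all genes called in that pair. The 6 KO diestrus mice, at 457 to 524 CPM, were all below the 4 KO proestrus mice, at 558 to 807. That call held in each of 10 fits that left out 1 of these mice, with the largest FDR at 0.0246, and was lost only when the filter on low counts was dropped (0.102).

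Of the other KO stage calls, 3 were in diestrus against estrus, where 30.7% of all genes were called. Tceal1 was higher in diestrus by 0.22 ± 0.08 (limma FDR 0.0343), Tceal8 by 0.20 ± 0.07 (0.0381) and Tceal6 by 0.23 ± 0.09 (0.0492). A share of 3 in 10 is near that of all genes in this fit. By edgeR, DESeq2 and limma without sample weights 0 members were called in this pair, with 0.0866%, 0.915% and 1.57% of all genes called. The FDR of these 3 genes ran from 0.248 (Tceal1, limma without weights) to 0.502 (Tceal8, edgeR) there. The KO diestrus mice ran from 70.6 through 80.7 to 87.7 CPM for Tceal1 and the KO estrus mice from 58.3 through 69.9 to 85.7, so that the ranges overlapped. Leaving out 1 of the 12 mice ended the call in 4 fits for Tceal1 and in 7 fits each for Tceal6 and Tceal8, with FDR values up to 0.148, 0.15 and 0.119. No member was called in KO proestrus against estrus (0.507% of all genes), although Bex2 was 0.36 ± 0.10 higher in proestrus with an FDR of 0.0552 by limma. None was called in KO metestrus against diestrus (10.4%), proestrus (4.37%) or estrus (0%). In these 4 pairs 7, 1, 4 and 0 of the 10 had an unadjusted p under 0.05 by limma, against 19.0%, 25.8%, 23.4% and 8.45% of all genes, and edgeR and DESeq2 called 0. With age as a covariate limma called 3 members in KO proestrus against estrus (3.89% of all genes) and 1 in KO metestrus against proestrus (6.66%).

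**Figure D5:**
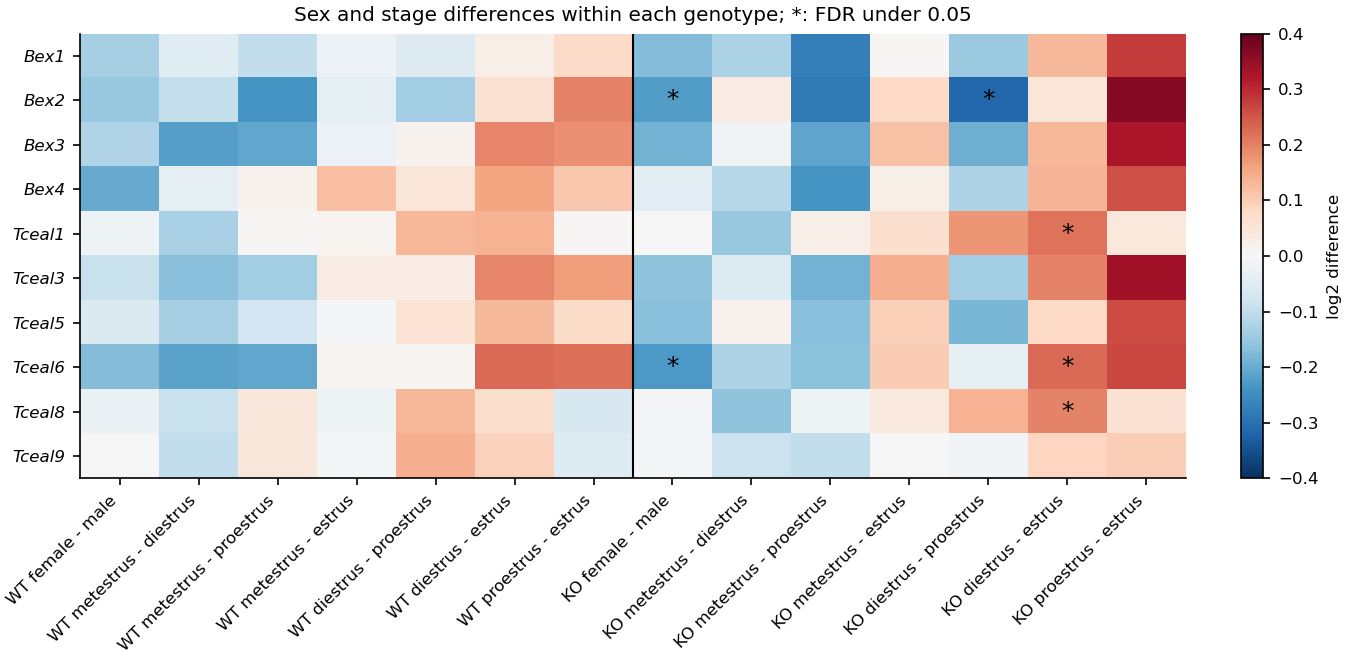
Log2 differences of the 10 genes between females and males and between the 6 pairs of stages, in WT on the left and KO on the right; red is positive and an asterisk marks an FDR under 0.05. All asterisks are in KO columns: Bex2 and Tceal6 for sex, Bex2 for diestrus against proestrus (-0.31), and Tceal1, Tceal6 and Tceal8 for diestrus against estrus.

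The genes varied together from mouse to mouse. After removal of group means, the 45 pairs of members had Pearson r from 0.44 (Tceal1 and Tceal5) to 0.94 (Tceal3 and Tceal6) over 55 mice, with a median of 0.75. The median r of other pairs of genes was not taken. Bex2 and Bex3 reached 0.93 and Bex1 and Bex4 reached 0.86, and both of these pairs share transcript sequence as well as promoter sequence. Mice of a group also kept their place from gene to gene. WT diestrus replicate 5, WT proestrus replicate 5, KO male replicate 6 and KO metestrus replicate 5 were the highest of their group for all 10 genes, and KO proestrus replicate 1 was the lowest for all 10. Of all genes tested, WT proestrus replicate 5 was the highest for 33.6% and the lowest for 36.4%. For KO male replicate 6 these shares were 28.6% and 29.9%, and for the other mice named they were not taken. Each value of a mouse comes from 1 library, so what is particular to a library enters every r.

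The tested genes most like the mean of the 10, by Pearson r of the same residuals over 55 mice, were Eif1, Med28, Zcchc17, Mrpl12, Psmb5, Ndufs3, Eif3g, Cuedc2, Atp5g3 and Med10, with r from 0.93 to 0.94. They include translation initiation factors (Eif1, Eif3g), Mediator subunits (Med28, Med10), a proteasome subunit (Psmb5) and respiratory chain or ATP synthase subunits (Ndufs3, Atp5g3). An r above 0.87 placed a gene among the top 1% of all genes tested. None of these 10 genes was called between KO and WT, and their differences ran from -0.14 to 0.01. Closest to Bex1 were Ggct, Acot13 and Ccdc28b (r = 0.87, 0.87 and 0.86), to Bex2 Med28, Zcchc17 and Arpc5l (0.92, 0.91 and 0.90), and to Tceal8 Txndc9, Psma5 and Psmb2 (0.93, 0.93 and 0.92).

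Related genes and partners were described by lists. Of 14 relatives outside the members (Bex6, Tceal7 and the Gprasp, Arxes and Armcx families among them) 13 were tested, of which 1 was higher in KO and 0 were lower, with a list median of 0.04 against -0.0029 over all genes. The one called was Armcx6, from a family with armadillo repeats, at 0.40 ± 0.09 (limma FDR 0.00345). Armcx6 also carries the TGACG and CACGTG spacing described above and was the only one of the 10 other tested genes with it that was called. Of 20 partners of the p75 neurotrophin receptor 19 were tested and 0 were called by limma, edgeR or DESeq2, with 1 at an unadjusted p under 0.05 in limma and a list median of -0.0041. Those with the smallest p were Bdnf, a ligand of the TrkB receptor, at -0.18 ± 0.06 (limma FDR 0.0705) and Sorcs2, a co-receptor, at 0.12 ± 0.08 (0.461). Ngfr, the receptor itself, was at -0.11 ± 0.17. Of 28 TFIIS and RNA polymerase II elongation factors 27 were tested, of which Nelfcd, a subunit of the negative elongation factor, was higher (0.18 ± 0.05) and Eloc, a subunit of elongin, was lower (-0.14 ± 0.03) by limma, with a list median of 0.02, while edgeR and DESeq2 called 0 of the 27. Of the TFIIS genes themselves, Tcea1 was at -0.03 ± 0.04 and Tcea2 at 0.14 ± 0.09, neither of them called.

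Cell type markers gave the composition of the samples. Neuronal markers summed to 8456 to 12925 CPM in WT and 9395 to 13043 in KO mice, and CA1 and CA3 pyramidal markers to 1389 to 1693 and 1362 to 1667. Between KO and WT 1 of 10 neuronal markers was higher by limma (Tubb3, 0.17 ± 0.05), 2 of 8 dentate granule markers were lower (C1ql2, -0.59 ± 0.10, and Stxbp6, -0.20 ± 0.05) and 2 of 10 GABAergic markers were lower (Cort, -0.99 ± 0.10, and Npy, -0.33 ± 0.08). By edgeR and by DESeq2 0 neuronal, 1 dentate and 1 GABAergic marker were called. Each list held both signs: neuronal -0.10 to 0.17 (median 0.04), dentate -0.59 to 0.17 (-0.08) and GABAergic -0.99 to 0.11 (-0.03). No marker was called in the other 10 lists, which cover pyramidal cells, astrocytes, oligodendrocytes and their precursors, microglia, endothelium, choroid plexus, thalamus, blood and pituitary, the last with 3 of 8 markers tested. Summed choroid plexus markers ran from 20.8 to 1439.6 CPM in WT and from 29.4 to 2245 in KO mice. The part of these markers in the Bex and Tceal differences was not tested.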

How the data were processed

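The authors sequenced 55 dorsal hippocampus libraries, poly-A enriched, unstranded and paired-end, made from the low-speed supernatant of a detergent lysate. Per the labels and methods, reads were aligned to GRCm38 with STAR 2.7.9a, and uniquely aligned reads were counted per Ensembl gene with featureCounts 2.0.3. The authors deposited these raw gene counts, which are the source of all levels and tests. Their deposited log2 CPM table served as a check of the normalization, with the largest difference at 5e-14 over 16164 genes. Their deposited table of estimated counts per transcript (Salmon 1.5.2) was used for isoforms and, summed and rounded, as an alternative. Tables of CPM were not used. The gene counts held 55774 lines, of which 287 repeat a gene, and 1 column without a listed sample was left out. Totals were 25881295 to 63547098 per library (median 53384170).

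Following the study's methods, a gene needed more than 1 CPM in 10 or more libraries, and ribosomal RNA genes were removed. Counts were scaled by TMM (edgeR 4.0.16) and fitted with voomWithQualityWeights in limma 3.58.1 (R 4.3.3), with 1 mean for each of 10 groups and each comparison a contrast of these means. FDR values follow Benjamini and Hochberg over all 16168 genes, with a threshold of 0.05. Each mouse is 1 replicate. Alternatives were DESeq2 1.42.0, edgeR's quasi-likelihood test, RLE scaling, voom without weights, no filter, age as a covariate, Cnih3 line parents only, a random block for shared mouse numbers, leaving out each mouse and, added after seeing the data, the Salmon estimates and a fit without 2 WT diestrus mice. The model was also run on simulated counts, drawn independently for each gene and mouse. In these data genes vary together from mouse to mouse, so that run does not test the calls given here. Parentage came from the study's sample table. Levels per kb use the union of annotated exons. Promoter windows come from RefSeq on GRCm38, and motifs were searched with Python 3.11.15.

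The members, gene lists and motifs were chosen with earlier results of these data known. Named genes are the 10 members, the 10 genes most like their mean and 3 each most like Bex1, Bex2 and Tceal8 by r of residuals, and of each list those called over all mice (up to 5) or else the 2 with the smallest p. Ngfr, Tcea1, Tcea2, the Bex3 sex values, Aim2 and Atf4 were added after their values were seen.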

Additional observations from a re-analysis of the deposited data

Results flagged for a closer look

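Dixon's gap ratio was computed for each of the 10 genes in each of the 10 groups, and 12 of these 100 sets had a mouse set further apart than the 95% critical value allows. Chance alone flags about 1 in 20. Of the 12, 9 belong to 1 mouse, KO male replicate 6, which was the highest of 7 KO males with a gap ratio of 0.585 for Bex1, 0.752 for Bex2, 0.651 for Bex3, 0.631 for Bex4, 0.597 for Tceal1, 0.599 for Tceal3, 0.583 for Tceal6, 0.613 for Tceal8 and 0.723 for Tceal9 (critical value 0.568). Its Bex1 level was 111 CPM against 63.2 to 79.9 in the other 6. It stood apart at either end of its group for 7.09% of all 16168 genes, as the highest for 428 and as the lowest for 719. WT proestrus replicate 5 was the highest for Tceal9, at 249.6 CPM against 158 to 169.9, with a ratio of 0.847 (critical value 0.710), and stood apart at either end for 10.3% of all genes. WT metestrus replicate 1 was the lowest for Bex2, at 596 CPM against 631 to 634, with a ratio of 0.913 (0.829), and KO diestrus replicate 6 the lowest for Tceal8, at 105 CPM against 118 to 126, with a ratio of 0.629 (0.625). These 2 mice stood apart at either end for 1.51% and 3.70% of all genes. Without KO male replicate 6, Tceal5 and Tceal6 were also called over all mice (limma FDR 0.0479 and 0.0478). This was not particular to that mouse, since both lay just outside the threshold with all mice (0.0552 and 0.0540). Leaving out 1 mouse at a time, Tceal5 was called in 13 and Tceal6 in 14 of 55 fits. The share of all genes called was not taken in those fits. What set these mice apart was not tested.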

How the results depend on the processing

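Over all mice the count of called members was 6 and stayed at 4 to 7 under every alternative that keeps all 10 genes and at 6 to 9 when 1 mouse was left out. Bex1, Bex2, Bex4 and Tceal8 kept their calls throughout. Counts in single groups and for sex and stage moved. In metestrus (1 called) 0 were called by edgeR, by DESeq2, without sample weights, without the filter on low counts and with Cnih3 line parents only, and 0 to 1 when a mouse was left out. With Cnih3 line parents only, 2 were called in diestrus (0 with all mice), 5 in proestrus (0), 0 in estrus (3) and 3 in WT stage pairs (0), with 0.0742%, 10.2%, 0% and 27.2% of all genes called. That fit holds 39 mice and 1 WT mouse each in metestrus, proestrus and estrus. In estrus 1 was called by edgeR and without sample weights, with 0.0433% and 0.0495% of all genes called, against 0.179% in the main fit. For KO females against males (2 called) 0 were called by edgeR, by DESeq2, without weights, without the filter and with age as a covariate. Of all genes, 0.291%, 1.07%, 0.575%, 0.513% and 0.142% were called in these fits, against 5.93% in the main fit. For KO stage pairs (4 called) 1 was called by edgeR, by DESeq2 and without weights, and 0 without the filter. The share of all genes called in at least 1 KO pair was 8.41%, 11.7%, 10.7% and 11.6% there. In the main fit it was 46.2%. Calls were thus lost over all genes and not in the members alone. With age as a covariate the count was also 4, but the pairs changed: 3 were called in proestrus against estrus and 1 in diestrus against estrus. Leaving out 1 mouse gave 0 to 3 called members in males and also in diestrus, 0 to 1 for proestrus, 2 to 3 for estrus, 0 to 0 for WT sex, 0 to 5 for WT stages, 0 to 4 for KO sex and 1 to 6 for KO stages. The share of all genes called was not taken in any fit without 1 mouse. In WT diestrus against estrus, Bex3, Tceal3 and Tceal6 were called without WT diestrus replicate 1, 2 or 6, and Tceal1 without replicate 1 (FDR 0.0371). For KO sex Bex3 lay at the threshold with all mice (FDR 0.0503) and was called when any of many single KO mice was left out. Tceal5 (0.106 with all mice) was called without KO metestrus replicate 4 (0.0320) or KO estrus replicate 5 (0.0370). With WT diestrus replicates 3 and 4 both left out, a choice made after seeing the data, 3 were called in diestrus, with 10.9% of all genes, and the other counts were unchanged. The cause of these shifts was not tested. Over all genes, 549 were called between KO and WT by limma with quality weights, 150 without weights, 153 by edgeR, 187 by DESeq2, 260 from Salmon estimates, 272 without the filter and 2353 with Cnih3 line parents only and 894 without those WT diestrus mice. No difference of a member reversed among those called. With a random block for mice whose numbers begin alike (8 such beginnings among 26 mice, correlation -0.0025) each count of called members was unchanged, the all-mice count staying at 6. No paired analysis was possible because replicate numbers were given in accession order and pair no mice across groups.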
